A study of Homo sapiens with 6 samples.

Results

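Histone lysine methyltransferases and demethylases were compared on 6 Affymetrix PrimeView arrays, 3 of cells that received a control short hairpin RNA (shRNA) and 3 of cells that received an shRNA against SHCBP1, an adaptor-binding protein with a part in cytokinesis. Both hairpins were delivered by lentivirus, which the labels call a transfection. The members were all genes with a probe set carrying 1 symbol that was a KDM number with no letter or with A, B or C, or a KMT2, KMT5, SETD, SMYD or NSD gene, together with EZH1, EZH2, SUV39H1, SUV39H2, EHMT1, EHMT2, SETDB1, SETDB2 and DOT1L. KDM5C, KDM5D and KDM6A were left out. KDM4D and KDM4E end in other letters and were read with the other JmjC genes, and ASH1L is not analysed here. The rule gave 48 genes of 18132 tested, 34 methyltransferase genes and 14 KDM demethylase genes, measured by 163 of 44988 probe sets with 1 symbol. The rule used gene names and no measured values, but it was set with earlier results of these data known.

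The titles and sample characteristics name the cells TPC-1, an established papillary thyroid carcinoma line, whereas the RNA extraction text names DLD1, a colorectal carcinoma line. Clones, selection, time after infection and a further hairpin against SHCBP1 are not described, so effects of SHCBP1 loss and other effects of the hairpin cannot be told apart. The submitters call the 3 samples of a group independent without saying that they came from separate cultures, so p-values measure only how these samples vary, possibly for technical reasons. The deposited log2 values have the 6-array median of every probe set removed. They compare arrays and hold no expression level, so neither the cell label nor the abundance of any member could be checked. In bulk RNA, less RNA per cell and fewer cells with the transcript cannot be told apart.

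Histone lysine methyltransferases place methyl groups from S-adenosylmethionine on lysines of histone tails, most of them through a SET domain, while DOT1L uses a different fold. Demethylases remove them, either as flavin-dependent amine oxidases (KDM1A and KDM1B) or as JmjC-domain enzymes that use iron, oxygen and 2-oxoglutarate. Methylation of H3K4 and H3K36 is associated with transcribed chromatin, H3K27 methylation with Polycomb repression, and H3K9 and H4K20 methylation with heterochromatin. Several SMYD and SETD proteins act mainly on proteins other than histones.

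SHCBP1 was lower in every SHCBP1 shRNA array than in every control array, by a log2 difference of -1.54 ± 0.06 (SE, n = 3 arrays per group). Signals of the poly-A spike-in controls rose by 0.43 ± 0.04 log2 (SE). Each change is thus relative to other genes, and scaling to the spike-in controls lowers every difference by that shift.

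Of the 48 members, 28 (58.3%) passed limma's moderated test at a Benjamini-Hochberg adjusted p under 0.05, against 41.0% of all genes tested. Relative to other genes 10 members were higher under the SHCBP1 hairpin (22.0% of all genes) and 18 were lower (19.0% of all genes). With spike-in scaling 0 members were higher and 43 lower, but of all 18132 genes 441 were higher and 16268 lower. Most genes were thus lower under that scaling. The spike-in counts given below for classes and lists stand against this background and are not particular to them. The values of the groups did not overlap for 34 members, against 50.0% of all genes. All these changes were small: 0 of 48 reached 2-fold, which 1.22% of all genes did, and the 28 that passed had a median size of 0.25 on the log2 scale. The members' median log2 difference was -0.02, against 0.02 over all genes. The median SD within a group was 0.048 log2 over members and 0.057 over all genes.

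The calls were split evenly among methyltransferase genes and lay on the lower side among the demethylase genes with KDM symbols. Of 34 methyltransferase genes 10 were higher and 10 lower, with a median log2 difference of -0.0018 (0 higher and 29 lower with spike-in scaling). Of 14 demethylase genes 0 were higher and 8 lower, with a median of -0.17 (0 and 14 with spike-in scaling). The difference between these shares was not tested. Demethylases were taken by KDM symbol only. Among 21 other JmjC and PRDM genes, outside the rule, 7 were higher and 1 lower (0 and 20 with spike-in scaling). That list also holds PRDM genes and SETMAR, so its counts are not those of demethylases alone. The demethylase count was smaller without any 1 array, in part through the smaller sample: 4 were lower without SHCBP1 shRNA replicate 2 and 5 without control replicate 3. KDM3A, KDM5B, KDM1B and KDM4A passed as lower without each array in turn. The means of KDM1B and KDM4A each join a probe set that passed, at -0.45 and -0.35, and another that did not, at -0.11 and 0.0028.

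**Figure D1:**
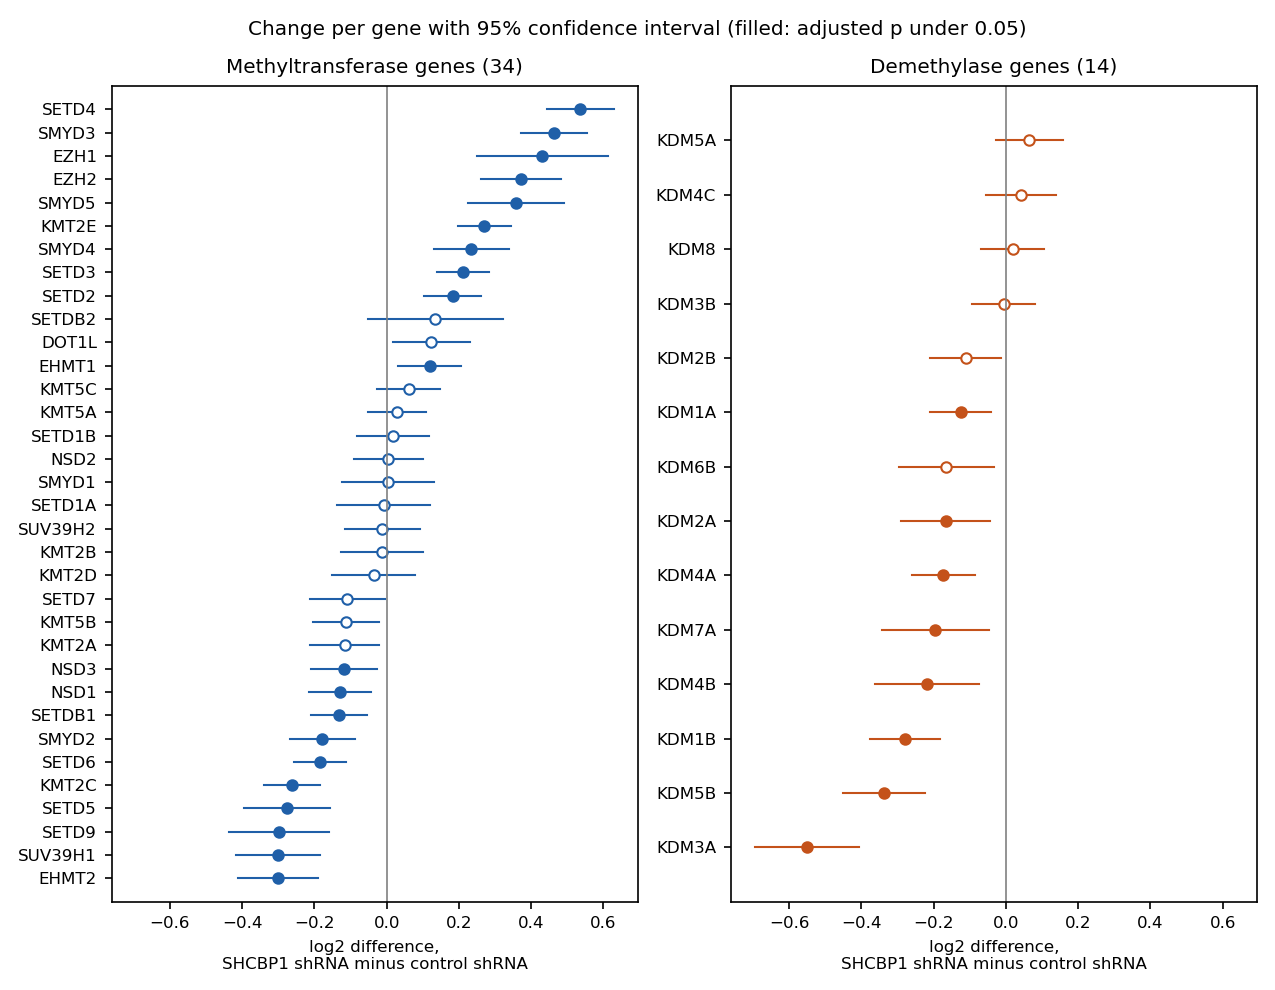
Log2 difference (SHCBP1 shRNA minus control shRNA, horizontal axis) of each of the 34 methyltransferase genes (left) and 14 demethylase genes (right), with 95% confidence intervals of limma; filled points have an adjusted p under 0.05. Filled points lie on both sides of 0 on the left and below 0 on the right; with spike-in scaling, which lowers every point by 0.43, no filled point lies above 0.

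Among demethylases of H3K9, KDM3A, a JmjC enzyme of mono- and dimethylated H3K9 that is known as a hypoxia-induced gene, fell further than any other member. It had centred log2 values of 0.29, 0.19 and 0.37 under the control hairpin and -0.21, -0.37 and -0.21 under the SHCBP1 hairpin. The groups lay well apart, and the log2 difference was -0.55 ± 0.06 (SE), a 1.47-fold fall (95% confidence interval -0.70 to -0.41, limma adjusted p = 0.000241). All 3 of its probe sets fell, by 0.34, 0.41 and 0.90 on the log2 scale. Its relative KDM3B had a difference of -0.0060 ± 0.04 (SE) with overlapping groups, and its interval ran from -0.09 to 0.08.

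The sequence at the RefSeq start of KDM3A is shown because this gene changed most; it lies at chr2:86441121-86441420 (GRCh38.p14, plus strand, 250 bases before to 50 after the first of 2 listed starts). Capitals mark matches on either strand to 3 motifs: the hypoxia response core (ACGTG or GCGTG), the CCAAT box (CCAAT) and an E2F site (TTTGGCGC or TTTCCCGC). No spelling of one motif contains that of another. ACGTG on one strand can overlap itself on the other.

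KDM3A: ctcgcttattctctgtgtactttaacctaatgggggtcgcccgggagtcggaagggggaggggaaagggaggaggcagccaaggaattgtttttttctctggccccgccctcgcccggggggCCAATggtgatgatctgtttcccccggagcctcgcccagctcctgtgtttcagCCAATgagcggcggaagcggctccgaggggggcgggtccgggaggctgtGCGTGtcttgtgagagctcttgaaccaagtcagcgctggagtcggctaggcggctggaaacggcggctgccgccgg

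This window holds 1 hypoxia core, 2 CCAAT boxes and 0 E2F sites. The same motifs were found in 48.4%, 34.6% and 2.27% of 35116 promoters of that length. Among 65 promoters listed for 45 of the members they were found in 72.3%, 33.8% and 4.62%. These are matches of letters only, and promoters of like base composition were not set apart.

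Among H3K4 demethylases 3 of 4 were lower relative to other genes (4 of 4 with spike-in scaling). KDM5B, a JmjC enzyme of trimethylated H3K4, had values of 0.12, 0.23 and 0.30 under the control hairpin and -0.12, -0.12 and -0.12 under the SHCBP1 hairpin. The SHCBP1 shRNA arrays were nearly identical and all lay below the controls, with a log2 difference of -0.34 ± 0.05 (SE, limma adjusted p = 0.000889). Of its 4 probe sets 3 fell, by 0.67, 0.51 and 0.23, and the other differed by 0.06. KDM1B, the flavin-dependent LSD2, fell from 0.09, 0.21 and 0.16 to -0.14, -0.09 and -0.14, a difference of -0.28 ± 0.04 (SE, limma adjusted p = 0.00108). KDM1A (LSD1), measured by 1 probe set, fell by 0.13 on the log2 scale (SE 0.04, limma adjusted p = 0.0269), and that probe set did not pass when tested among all probe sets. That call was lost without control replicate 1, control replicate 3 or SHCBP1 shRNA replicate 2 (limma adjusted p from 0.0688 to 0.0894). KDM5A, the close relative of KDM5B, did not pass, at 0.07 ± 0.04 (SE), and its 7 probe sets ran from -0.12 to 0.16.

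The other JmjC demethylases that passed were also lower. KDM4A and KDM4B, which act on trimethylated H3K9 and H3K36, fell by 0.17 (SE 0.04, limma adjusted p = 0.00675) and 0.22 (SE 0.06, limma adjusted p = 0.0244). KDM4C of the same group differed by 0.04 ± 0.04 (SE) and did not pass. The control values of KDM4B were scattered, at -0.02, 0.21 and 0.12, against -0.05, -0.12 and -0.16 under the SHCBP1 hairpin, so the groups were only just apart. KDM2A of H3K36 fell by 0.17 (SE 0.05, limma adjusted p = 0.036), and KDM7A, which acts on dimethylated H3K9 and H3K27, by 0.20 (SE 0.06, limma adjusted p = 0.0424). The KDM7A mean joins a probe set at -0.56, which passed, and another at 0.16, which did not.

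The calls of KDM4B, KDM2A and KDM7A were each lost on leaving out any of several arrays, in part through the smaller sample. Their differences stayed below 0 without each array in turn. KDM4B was lost without control replicate 2 or 3 or SHCBP1 shRNA replicate 2 or 3 (limma adjusted p from 0.065 to 0.0759). KDM2A was lost without control replicate 3 or SHCBP1 shRNA replicate 2 or 3 (limma adjusted p from 0.0741 to 0.11). KDM7A was kept without control replicate 1 and lost without any other array (limma adjusted p from 0.0575 to 0.121).

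Of the demethylases that did not pass, KDM6B, the JmjC enzyme of trimethylated H3K27, came closest. It had values of 0.20, 0.09 and 0.0059 under the control hairpin and -0.0059, -0.10 and -0.09 under the SHCBP1 hairpin, a difference of -0.16 ± 0.06 (SE, limma adjusted p = 0.0521). Its groups did not overlap, and it passed as lower without control replicate 3 (limma adjusted p = 0.023). With all 6 arrays it also passed under repeated quantile normalization, median centring, array weights and the replicate block (limma adjusted p = 0.0349, 0.0373, 0.0338 and 0.0259). KDM2B, a CpG-island-binding relative of KDM2A, differed by -0.11 ± 0.04 (SE, limma adjusted p = 0.0714) and passed without SHCBP1 shRNA replicate 3 (limma adjusted p = 0.0498) or without _s_at and _x_at probe sets (limma adjusted p = 0.0475). KDM8 differed by 0.02 ± 0.04 (SE) with overlapping groups.

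Both H3K27 methyltransferases rose relative to other genes, and with spike-in scaling neither passed (log2 differences of -0.0030 for EZH1 and -0.06 for EZH2). EZH2, the catalytic subunit of Polycomb repressive complex 2 (PRC2) that is typical of dividing cells, had values of -0.17, -0.16 and -0.21 under the control hairpin and 0.10, 0.25 and 0.23 under the SHCBP1 hairpin. The groups were separate, and the log2 difference was 0.37 ± 0.05 (SE, 1.29-fold, limma adjusted p = 0.000486). EZH1, its less active relative in PRC2, had values of -0.25, -0.29 and -0.09 against 0.34, 0.08 and 0.23, a difference of 0.43 ± 0.08 (SE, 1.35-fold, limma adjusted p = 0.00294). EZH1 was more scattered within both groups than EZH2. The rise of EZH1 came mainly from 1 of 3 probe sets, at 0.90, while the other two were at 0.18 and 0.22 and did not pass. Of the 3 probe sets of EZH2, those at 0.44 and 0.68 passed and that at 0.0015 did not.

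The start sequences of this pair are set side by side because both genes rose; they lie at chr17:42744991-42745290 (EZH1) and chr7:148884242-148884541 (EZH2, the first of 2 listed starts), both on the minus strand of GRCh38.p14, with the same capitals.

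EZH1: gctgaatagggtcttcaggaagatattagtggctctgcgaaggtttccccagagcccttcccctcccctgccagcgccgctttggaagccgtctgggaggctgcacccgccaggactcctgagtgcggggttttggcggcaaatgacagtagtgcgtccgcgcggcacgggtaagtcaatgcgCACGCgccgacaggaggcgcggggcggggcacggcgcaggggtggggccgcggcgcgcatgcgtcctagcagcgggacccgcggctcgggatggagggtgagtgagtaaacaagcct
EZH2: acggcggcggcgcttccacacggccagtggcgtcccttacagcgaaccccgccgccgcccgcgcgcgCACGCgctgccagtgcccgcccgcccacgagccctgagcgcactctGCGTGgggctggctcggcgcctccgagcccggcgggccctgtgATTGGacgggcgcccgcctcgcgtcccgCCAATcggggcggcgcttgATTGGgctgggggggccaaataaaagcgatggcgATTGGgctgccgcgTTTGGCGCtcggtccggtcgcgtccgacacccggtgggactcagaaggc

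The EZH2 window holds 2 hypoxia cores, 4 CCAAT boxes and 1 E2F site, and that of EZH1 holds 1, 0 and 0. The windows thus share the hypoxia core, found in 48.4% of all promoters.

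H3K9 methyltransferases were divided, with 3 lower and 1 higher of 6 (6 lower with spike-in scaling). EHMT2 (G9a) and EHMT1 (GLP) form a heterodimer that mono- and dimethylates H3K9, and their transcripts moved in opposite directions relative to other genes, although EHMT1 turned to -0.31 with spike-in scaling. EHMT2 fell from 0.25, 0.09 and 0.19 to -0.09, -0.17 and -0.11, a log2 difference of -0.30 ± 0.05 (SE, limma adjusted p = 0.00152), on 1 probe set. EHMT1 rose from -0.07, -0.07 and -0.04 to 0.04, 0.11 and 0.02, a difference of 0.12 ± 0.04 (SE, limma adjusted p = 0.0359). The rise was the smallest called among members and was kept only without SHCBP1 shRNA replicate 3, being lost without any other array (limma adjusted p from 0.0589 to 0.111).

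SUV39H1, which trimethylates H3K9 in pericentromeric heterochromatin, had values of 0.21, 0.11 and 0.13 under the control hairpin and -0.11, -0.24 and -0.10 under the SHCBP1 hairpin. It was lower in every SHCBP1 shRNA array, by -0.30 ± 0.05 (SE, limma adjusted p = 0.00198), and its 5 probe sets ran from -0.55 to -0.19. Its relative SUV39H2 differed by -0.01 ± 0.04 (SE), with an interval from -0.12 to 0.09 and overlapping groups. SETDB1, which acts with the corepressor TRIM28, fell by 0.13 (SE 0.03, limma adjusted p = 0.0141), a call lost without control replicate 1 or SHCBP1 shRNA replicate 3 (limma adjusted p of 0.0538 and 0.051). The SETDB1 mean joins a probe set at -0.31, which passed, and another at 0.04, which did not. SETDB2 differed by 0.14 ± 0.08 (SE) with overlapping groups and the largest error of any member.

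**Figure D2:**
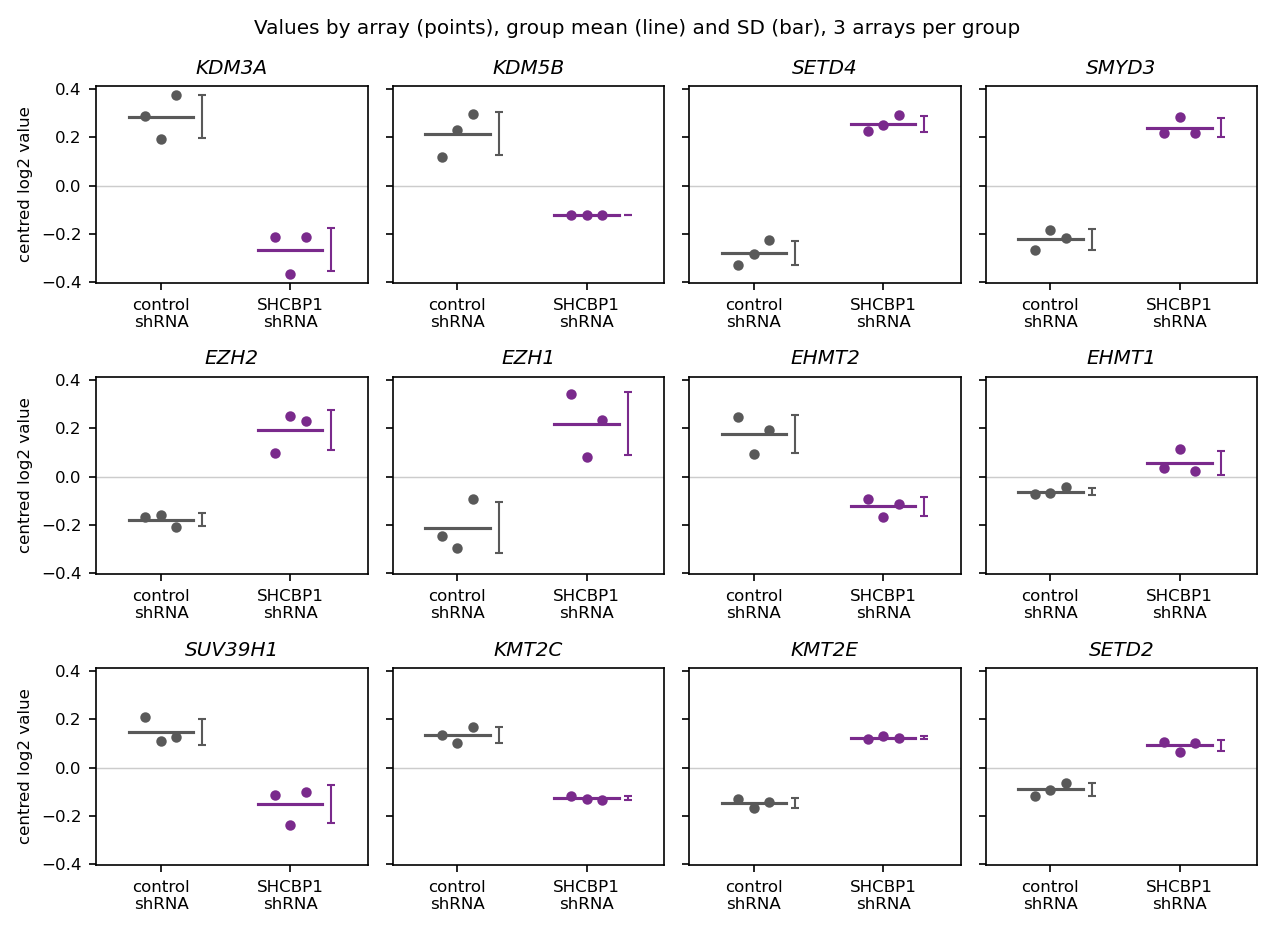
Centred log2 value (vertical axis) of 12 members on each array, 3 control shRNA (grey) and 3 SHCBP1 shRNA (purple); points are arrays, lines group means and bars SDs. The groups do not overlap for any of the 12; KDM3A, KDM5B, EHMT2, SUV39H1 and KMT2C are lower under the SHCBP1 hairpin, and the other seven are higher relative to other genes, of which EZH1, EZH2, EHMT1, KMT2E and SETD2 fall below 0 with spike-in scaling.

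In the H3K4 group, which holds the KMT2 and SETD1 subunits of COMPASS complexes, 1 of 8 rose and 1 fell (0 and 8 with spike-in scaling). KMT2C, which monomethylates H3K4 at enhancers, fell from 0.13, 0.10 and 0.17 to -0.12, -0.13 and -0.14, a log2 difference of -0.26 ± 0.03 (SE, limma adjusted p = 0.000468). All 5 of its own probe sets fell. A further 4 probe sets that name KMT2C together with BAGE family genes, and so stood outside the rule, differed by -0.60 to -0.18. KMT2E, a divergent member without an established methyltransferase activity, rose from -0.13, -0.17 and -0.14 to 0.12, 0.13 and 0.12, a difference of 0.27 ± 0.03 (SE, limma adjusted p = 0.000285), but was at -0.16 with spike-in scaling. Its 9 probe sets all lay above 0, from 0.10 to 0.47, and 7 passed.

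The other H3K4 methyltransferase genes did not pass. KMT2A came closest, at -0.12 ± 0.04 (SE, limma adjusted p = 0.0564), and 4 of its 8 probe sets passed as lower. SETD7, which monomethylates H3K4 and several transcription factors, differed by -0.11 ± 0.04 (SE). KMT2B, KMT2D, SETD1A and SETD1B lay between -0.04 and 0.02, with overlapping groups.

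H3K36 methyltransferases gave 1 rise and 2 falls among 4 (0 and 4 with spike-in scaling). SETD2, which trimethylates H3K36 behind elongating RNA polymerase II, rose from -0.12, -0.09 and -0.06 to 0.11, 0.06 and 0.10, a difference of 0.18 ± 0.03 (SE, limma adjusted p = 0.00334), and was at -0.25 with spike-in scaling. Its 3 probe sets ran from -0.12 to 0.38, and 2 passed as higher. The dimethylases NSD1 and NSD3 fell by 0.13 (SE 0.04, limma adjusted p = 0.0256) and 0.12 (SE 0.04, limma adjusted p = 0.043). Both calls were lost without control replicate 2 or SHCBP1 shRNA replicate 1 or 2, that of NSD1 also without control replicate 3 and that of NSD3 also without control replicate 1 or SHCBP1 shRNA replicate 3 (limma adjusted p from 0.0556 to 0.138). Taking the median of the probe sets in place of the mean also ended both calls (limma adjusted p = 0.0786 for NSD1 and 0.198 for NSD3). NSD2 differed by 0.0046 ± 0.04 (SE), a mean over 12 probe sets that did not move together. DOT1L, the H3K79 methyltransferase, differed by 0.12 ± 0.05 (SE, limma adjusted p = 0.0644) and did not pass, although its groups were apart.

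None of the 3 H4K20 methyltransferases passed as a mean of probe sets. KMT5A, which monomethylates H4K20 in the cell cycle, differed by 0.03 ± 0.03 (SE), and KMT5C by 0.06 ± 0.04 (SE). KMT5B, which adds further methyl groups, differed by -0.11 ± 0.04 (SE, limma adjusted p = 0.0524), passed without control replicate 1 (limma adjusted p = 0.0481) and had the widest disagreement of any member. All 6 of its probe sets passed when tested singly among 49293 probe sets, 4 lower and 2 higher.

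The KMT5B probe set that rose furthest had values of -0.53, -0.42 and -0.49 under the control hairpin and 0.42, 0.48 and 0.55 under the SHCBP1 hairpin. The difference was 0.96 ± 0.05 (SE, limma adjusted p = 1.03e-05). The other rising set was at 0.57 ± 0.04 (SE, limma adjusted p = 3.48e-05). In the opposite direction, one set went from 0.23, 0.26 and 0.30 to -0.23, -0.27 and -0.40, a difference of -0.56 ± 0.06 (SE, limma adjusted p = 0.000166). The 4 falling sets were close together, from -0.59 to -0.48. In the platform annotation the 2 rising sets belong to 2 transcript records and the 4 falling sets to 3 others, with 0 in common. With the median of the 6 probe sets the gene passed as lower, at -0.44 (limma adjusted p = 0.000111).

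The SETD and SMYD genes outside these classes held the largest rises. SETD4, a SET-domain protein, rose from -0.33, -0.28 and -0.23 to 0.23, 0.25 and 0.29, a log2 difference of 0.54 ± 0.04 (SE, 1.45-fold, limma adjusted p = 3.04e-05). SMYD3, which methylates the kinase MAP3K2 and has been described on H3K4 and H4K5, rose from -0.27, -0.18 and -0.22 to 0.22, 0.29 and 0.22, a difference of 0.46 ± 0.04 (SE, 1.38-fold, limma adjusted p = 5.85e-05). Both remained above 0 with spike-in scaling, at 0.10 and 0.03, but neither then passed (limma adjusted p = 0.0956 and 0.649). Each value joins 1 probe set that moved and 1 that did not. For SETD4 the probe sets were at 1.04 ± 0.07 (SE) and 0.03 ± 0.05 (SE), and the first was the only member probe set past 2-fold. For SMYD3 they were at 0.94 ± 0.06 (SE) and -0.01 ± 0.06 (SE).

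The start sequences of these furthest risers are given for comparison with KDM3A; they lie at chr21:36060477-36060776 (SETD4) and chr1:246507230-246507529 (SMYD3, the first of 2 listed starts), both on the minus strand of GRCh38.p14, with the same capitals.

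SETD4: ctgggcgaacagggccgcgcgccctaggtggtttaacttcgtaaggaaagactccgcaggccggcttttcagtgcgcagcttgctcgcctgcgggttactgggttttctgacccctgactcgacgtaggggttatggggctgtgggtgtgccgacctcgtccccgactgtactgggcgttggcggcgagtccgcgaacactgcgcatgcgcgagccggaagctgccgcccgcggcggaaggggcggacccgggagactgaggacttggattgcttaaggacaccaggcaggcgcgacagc
SMYD3: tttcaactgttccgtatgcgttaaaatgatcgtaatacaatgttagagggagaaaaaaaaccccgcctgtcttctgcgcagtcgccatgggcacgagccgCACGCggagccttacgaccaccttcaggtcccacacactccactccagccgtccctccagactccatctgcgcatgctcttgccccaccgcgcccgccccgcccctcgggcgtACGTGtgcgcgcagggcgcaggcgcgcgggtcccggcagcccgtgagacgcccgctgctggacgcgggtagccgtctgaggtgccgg

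SMYD3 holds 2 hypoxia cores and 0 of the other motifs in this window, and SETD4 holds none of the 3.

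In the SMYD family 3 of 5 rose and 1 fell (0 and 3 with spike-in scaling). SMYD5 rose from -0.12, -0.28 and -0.19 to 0.24, 0.09 and 0.16, a difference of 0.36 ± 0.06 (SE, limma adjusted p = 0.00148), and both of its probe sets rose, at 0.33 and 0.39. SMYD4 rose by 0.23 ± 0.04 (SE, limma adjusted p = 0.00379) on 1 probe set. With spike-in scaling these were at -0.07 and -0.20. SMYD2, which methylates p53 and other proteins, fell by 0.18 (SE 0.04, limma adjusted p = 0.00694). SMYD1, a muscle gene, differed by 0.0045 ± 0.05 (SE) with overlapping groups.

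All 5 of the other SETD genes passed, 2 higher and 3 lower (0 and 4 with spike-in scaling). SETD3, the actin histidine methyltransferase, rose from -0.11, -0.10 and -0.11 to 0.09, 0.12 and 0.10, a difference of 0.21 ± 0.03 (SE, limma adjusted p = 0.000934), and was at -0.22 with spike-in scaling. Of its 6 probe sets 5 rose. SETD9 fell by 0.30 (SE 0.06, limma adjusted p = 0.00477), SETD5 by 0.28 (SE 0.05, limma adjusted p = 0.00337) and SETD6, which methylates the NF-kB subunit RELA, by 0.18 (SE 0.03, limma adjusted p = 0.00207).

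Probe sets of one member often differed in size or call. Of 163 member probe sets 32 were higher (19.9% of all probe sets were) and 43 lower (18.1% of all) when tested singly, or 46.0% together against 38.0% of all. Of the 41 members with at least 2 probe sets, 3 had probe sets past the test in both directions (7.32%). Of 11734 genes with at least 2, 4.08% did, without matching for number of probe sets. The 3 members were KMT5B, NSD1 (3 lower and 1 higher of 8, from -0.53 to 0.37) and NSD2 (2 lower and 4 higher of 12, from -0.46 to 0.35). In each, rising and falling sets belonged to different records of the annotation. In NSD1 and NSD2 every such probe set had a record of its own, so their records could not have been shared.

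Of the 23 called members with at least 2 probe sets, all probe sets passed in the called direction for 3, namely KDM3A, KMT2C and SMYD5. In 11 a single probe set passed. Of the 20 members that did not pass, 7 had at least 1 probe set that did. The median spread between the probe sets of a member was 0.34 on the log2 scale, larger than the median size of the called changes. The counts of this paragraph and this spread were not computed over all genes, so they are not read as particular to the members. Where a probe set lies in its transcript is not given in the files, and the part of transcript choice or probe quality in these differences was not tested.

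**Figure D3:**
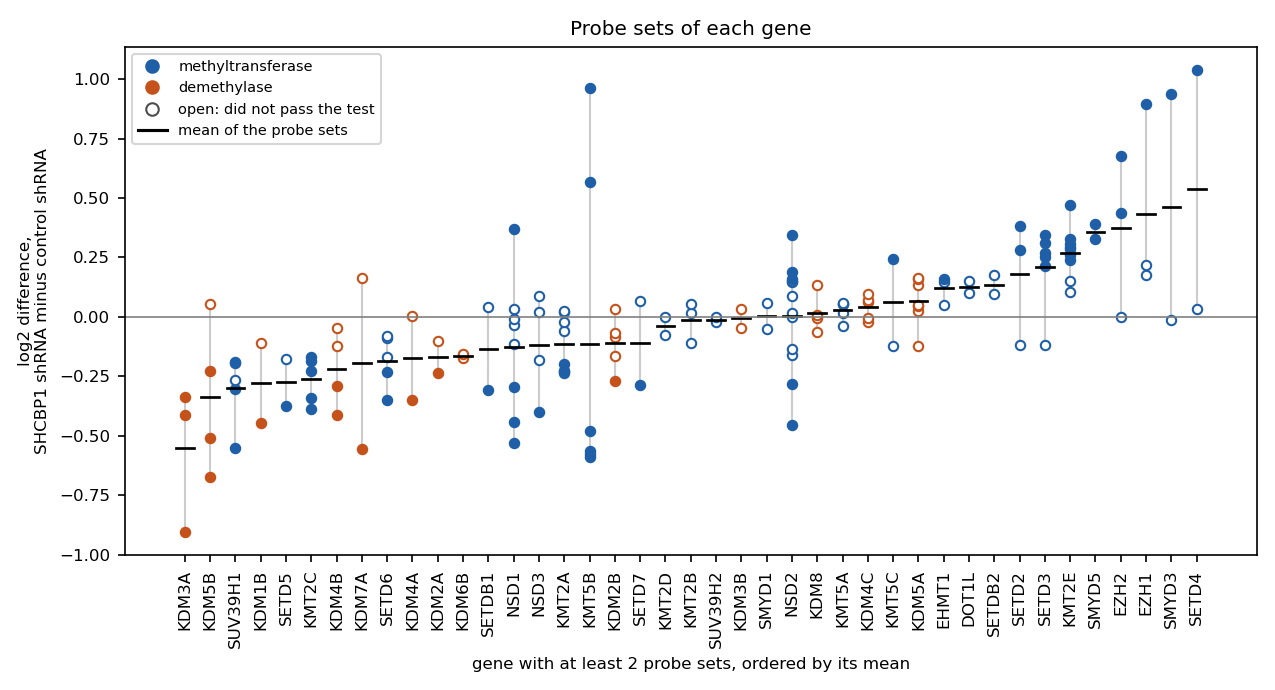
Log2 difference (SHCBP1 shRNA minus control shRNA, vertical axis) of every probe set of the 41 members with at least 2, ordered by the gene's mean (black line); filled points passed limma's test with adjustment over all probe sets. KMT5B has 4 filled points between -0.59 and -0.48 and 2 at 0.57 and 0.96, and SETD4 and SMYD3 each have 1 point near 0 and 1 near 1; spike-in scaling would lower every point by 0.43.

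Partners of these enzymes were read from 9 lists with 142 genes, of which 134 were tested. Of those, 49 were higher and 35 lower (62.7% together, against 41.0% of all genes; 3 and 116 with spike-in scaling), with a median of 0.05.

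Among PRC2 partners 5 of 12 were higher and 2 lower (0 and 8 with spike-in scaling), with a median near 0 at -0.00035. MTF2, which recruits PRC2 to CpG islands, rose by 0.53 ± 0.03 (SE), with all of its 9 probe sets between 0.37 and 0.65. LCORL rose by 0.44, the histone-binding RBBP4 by 0.38 and PHF19, a relative of MTF2, by 0.33. With spike-in scaling RBBP4 and PHF19 fell below 0, and MTF2 at 0.09 and LCORL at 0.01 no longer passed. The 2 probe sets of RBBP4 were at 0.08 and 0.68, and without probe sets of the _s_at and _x_at kind, which can match more than 1 transcript, it was at 0.08 and did not pass (limma adjusted p = 0.131). Of 16 PRC1 subunits 7 were higher and 3 lower (0 and 15 with spike-in scaling). PHC2 fell by 0.48, PCGF6 by 0.36 and PCGF2 by 0.26, and L3MBTL2 rose by 0.36, at -0.08 with spike-in scaling.

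Of 16 COMPASS and MLL partners 5 were higher and 4 lower (2 and 13 with spike-in scaling). BOD1 rose by 0.96 ± 0.04 (SE) on 1 probe set and HCFC2 by 0.67, with 2 probe sets at 0.37 and 0.96. WDR82, a subunit of the SETD1 complexes, rose by 0.47, but with spike-in scaling it was at 0.04 and did not pass. The acetyltransferase KAT8 fell by 0.33. Among heterochromatin and H3K9 partners 7 of 17 were higher and 6 lower (0 and 17 with spike-in scaling). The 4 largest changes were falls. TASOR of the HUSH complex fell by 0.90 ± 0.04 (SE), MORC2, which works with HUSH, by 0.73, CDYL by 0.44 and WIZ, a partner of the EHMT1-EHMT2 dimer, by 0.26. The 3 probe sets of TASOR ran from -1.29 to -0.31 and the 4 of WIZ from -0.47 to 0.0001.

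Of 11 LSD1-CoREST partners 2 were higher and 6 lower (0 and 11 with spike-in scaling), with a median of -0.20. ZMYM2 fell by 0.57 and GSE1 by 0.56, while the deacetylase HDAC1 rose by 0.29 and RCOR3 by 0.28, at -0.15 and -0.15 with spike-in scaling. Of 15 readers and partners of DOT1L and H3K36 methylation 8 were higher and 2 lower (1 and 9 with spike-in scaling), with a median of 0.14. The mismatch repair protein MSH6, which reads trimethylated H3K36, rose by 0.66 ± 0.05 (SE), the reader ZMYND11 by 0.54, MORF4L1 by 0.45 and BRPF1 by 0.37. With spike-in scaling BRPF1 was at -0.06, and ZMYND11 at 0.11 and MORF4L1 at 0.02 no longer passed.

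Of 21 other JmjC and PRDM genes 7 were higher and 1 lower (0 and 20 with spike-in scaling). RIOX1 rose by 0.40, PRDM4 by 0.28 and PRDM2 by 0.22, each below 0 with spike-in scaling, and RIOX2 fell by 0.37. The 4 probe sets of PRDM2 ran from -0.13 to 0.52. Arginine methyltransferases gave 4 rises and 3 falls among 10 (0 and 8 with spike-in scaling). CARM1 fell by 0.91 ± 0.03 (SE) on 1 probe set and PRMT3 by 0.37, whereas PRMT6 rose by 0.52 and the PRMT5 partner WDR77 by 0.33. With spike-in scaling PRMT6 was at 0.09 and no longer passed, and WDR77 was at -0.10.

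Of 16 genes that supply S-adenosylmethionine and 2-oxoglutarate, 4 were higher and 8 lower (0 and 15 with spike-in scaling), with a median of -0.16. The methionine synthase MTR fell by 0.35, with 5 probe sets from -0.70 to -0.18. The subunits of mitochondrial NAD-dependent isocitrate dehydrogenase did not move together, since IDH3A and IDH3G fell by 0.35 and 0.30 and IDH3B rose by 0.43, at -0.0015 with spike-in scaling. On the deposited values, every change named in these lists passed limma's test with Benjamini-Hochberg adjustment over all genes. Like BOD1 and CARM1, the genes PCGF6, L3MBTL2, MORC2, BRPF1, RIOX1 and IDH3G were each measured by 1 probe set.

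**Figure D4:**
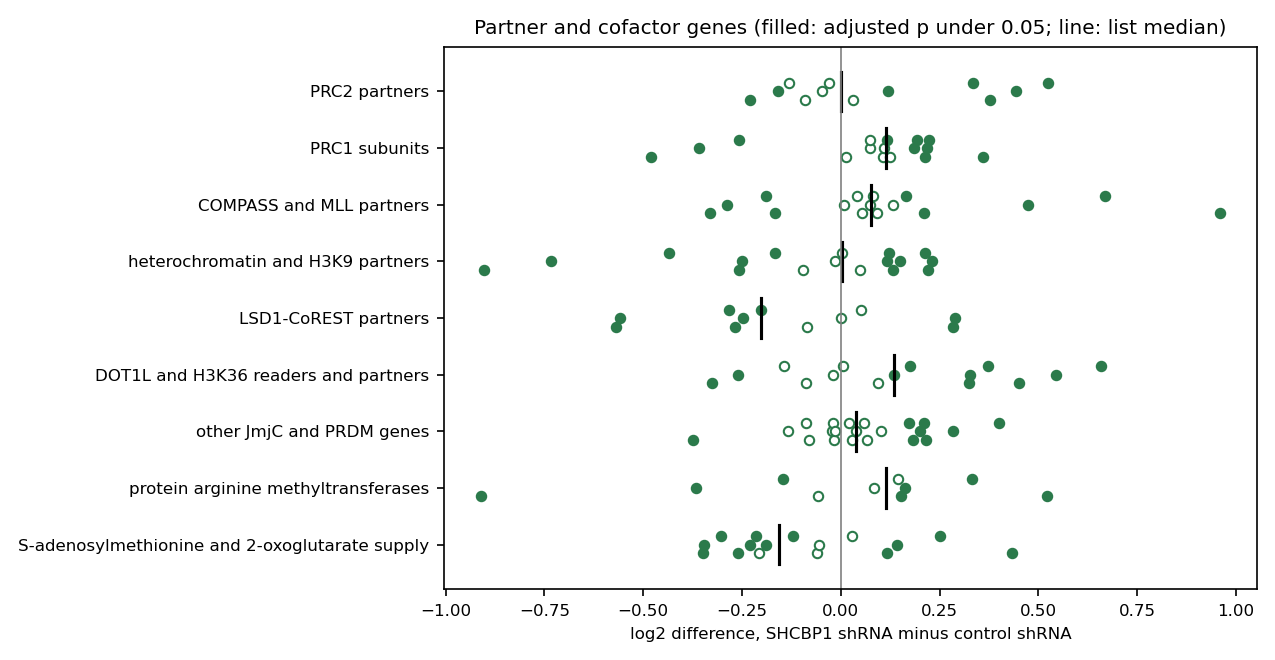
Log2 difference (SHCBP1 shRNA minus control shRNA, horizontal axis) of 134 partner and cofactor genes in 9 lists; filled points have an adjusted p under 0.05 and black lines mark list medians. The medians run from -0.20 for LSD1-CoREST partners to 0.14 for DOT1L and H3K36 readers, and all 9 lie below 0 with spike-in scaling.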

How the data were processed

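Total RNA was labelled with biotin and hybridised to 1 array per sample, per the labels' protocols. The deposited log2 values were made by the authors with RMA, per the submitters' processing notes; the version is not given in the sources used here. Log2 is assumed from RMA, since no source names the base. Every probe set has a median of 0 across arrays. RMA's quantile step removes shifts common to all genes.

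Probe sets were named from the platform annotation, and each gene was the mean of its probe sets with 1 symbol, with no filter. All 48 members carried the RefSeq symbol of their Entrez number (GRCh38.p14, names only). Promoter sequences are from RefSeq. Differences were tested over all 18132 genes in limma 3.58.1 (lmFit, then eBayes; R 4.3.3) without pairing and called at a Benjamini-Hochberg adjusted p under 0.05.

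Members and lists were chosen with earlier results of these data known. Text names SHCBP1, every called member, the largest uncalled differences where a class had fewer than 2 called, and up to 4 genes per list. KMT2A, KMT2B, KMT2D, SETD1A, SETD1B, SETD7, KDM4C, KDM5A, KMT5A, NSD2, SETDB2, SMYD1 and SUV39H2 were named after their values were seen. Alternatives were repeated quantile normalization, centring, spike-in scaling, array weights, a replicate block, robust moderation, other probe set summaries and leaving out each array. Array number, 3 per group, limits precision.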

Additional observations from a re-analysis of the deposited data

How the results depend on the processing

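Of the 28 called members, 20 kept direction and call in every alternative fit other than spike-in scaling; the exceptions were EHMT1, KDM1A, KDM2A, KDM4B, KDM7A, NSD1, NSD3 and SETDB1. Leaving out each array gave 21 to 25 called members, 9 to 10 higher and 12 to 16 lower (methyltransferases 9 to 10 and 8 to 9, demethylases 0 and 4 to 7), a member median of -0.064 to -0.029, 73 to 81 called partner genes and 6655 to 6840 called genes. The cause of losses with fewer arrays is in part the smaller sample by construction. Requiring a 2-fold change left 0 members, 0 partner genes and 221 genes (57 higher, 164 lower). Testing each probe set on its own gave 1 demethylase, KDM5A, with a higher probe set. Replicates of one number did not deviate together over all genes (correlations 0.02, -0.05 and 0.07). The labels do not say whether they share a culture, and these correlations cannot settle it. The replicate block left 26 called members, with EHMT1 (limma adjusted p = 0.0681), KDM4B (0.0507) and NSD3 (0.0503) lost and KDM6B (0.0259) gained. Other calls that changed, with limma adjusted p, were EHMT1, lost with repeated quantile normalization (0.0648), median centring (0.0569) and without _s_at and _x_at probe sets (0.0511), KDM7A, lost with array weights (0.0512), and KMT5B, gained with median centring (0.0421). EHMT1 has no _s_at or _x_at probe set, and without those kinds its difference stayed at 0.12. Among the named partner genes RBBP4 alone lost its call outside spike-in scaling, at 0.08 (0.131) without _s_at and _x_at probe sets.

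Scaling to the spike-in controls gave 16709 called genes (441 higher, 16268 lower), 43 members, all lower (29 methyltransferases, 14 demethylases, 0 higher) and a member median of -0.46. Under it these changed sign: EHMT1 -0.31, EZH1 -0.0030, EZH2 -0.062, KMT2E -0.16, SETD2 -0.25, SETD3 -0.22, SMYD4 -0.20, SMYD5 -0.075, DOT1L -0.31, KMT5C -0.37 and KDM8 -0.42 among members, and RBBP4 -0.056, PHF19 -0.10, L3MBTL2 -0.075, HDAC1 -0.15, RCOR3 -0.15, BRPF1 -0.063, RIOX1 -0.034, PRDM4 -0.15, PRDM2 -0.22, WDR77 -0.10 and IDH3B -0.0015 among partners. Of these, EZH1, EZH2, SMYD5, RBBP4, PHF19, L3MBTL2, BRPF1, RIOX1, WDR77 and IDH3B did not pass as lower, and the others did. SETD4 and SMYD3 among members and MTF2, LCORL, WDR82, ZMYND11, MORF4L1 and PRMT6 among partners stayed above 0 but lost their calls. Centred values hold no signal over background, so dim probe sets could not be set apart.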
